A study of Mus musculus with 8 samples.

Results

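miR-31 was followed through 8 small RNA libraries of mouse liver by its 2 mature arms, miR-31-5p and miR-31-3p, which are 2 of the 862 miRNA names listed over all libraries. The arms were taken by name, a name missing from a library counting as 0, and both were present in all 8. They were picked with an earlier look at caloric restriction in liver mitochondria in view, where miR-31-3p lay near the top, so the diet difference in mitochondria is described here without a test. All mice were male wild-type C57BL/6J, 8 weeks old at the start and housed singly. They were fed for 12 weeks under caloric restriction (CR), with food cut by 20% in week 1 and by 40% in the other 11 weeks, or ad libitum (AL). The groups were CR mitochondria (3 libraries), AL mitochondria (3 libraries), CR whole liver (1 library) and AL whole liver (1 library). Each whole-liver library was a pool of 3 RNA samples. Mitochondria were isolated by differential centrifugation and purified as mitoplasts, which lack most of the outer membrane, before RNA extraction. The labels do not give the animals behind the mitochondrial libraries, so p-values measure the spread between libraries, which may be technical.

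A miRNA hairpin is cut by Drosha and Dicer into a short duplex, and either strand can be kept by an Argonaute protein, where bases 2 to 8, the seed, select target mRNAs. miR-31 is known from epithelia, muscle precursors and T cells and from liver scarring and bile duct tumours. Reported targets of its 5p arm include Hif1an, which encodes an inhibitor of the hypoxia response. The 3p arm is usually the strand that is less often kept. How miRNAs made in the nucleus come to be found with mitochondria is still debated.

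The mature sequences are shown because each arm has a seed of its own, and a read count of each arm is thus the count of a separate potential regulator. Both come from RefSeq (GRCm38.p6) and match the sequences in the deposited tables; capitals mark the seed.
miR-31-5p: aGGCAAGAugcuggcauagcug
miR-31-3p: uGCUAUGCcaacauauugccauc
In the hairpin, also from RefSeq, capitals mark both arms, the 5p arm first.
Mir31 hairpin: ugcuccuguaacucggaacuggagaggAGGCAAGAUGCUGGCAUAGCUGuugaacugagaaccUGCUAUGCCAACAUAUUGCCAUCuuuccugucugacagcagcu
No other of the 1679 mature names in the RefSeq table and no other of the 862 listed names carried either seed. Each arm was found in only 1 of 1005 RefSeq hairpins, Mir31 itself, so neither arm's reads are shared with a second exact copy in that table.

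Mir31 lies on the minus strand of chromosome 4 at 88910557 to 88910662 (GRCm38). The 3p arm spans 88910577 to 88910599 and the 5p arm 88910614 to 88910635. In GENCODE M21 the hairpin lies wholly inside exon 3, the last of 3 exons, of the long noncoding RNA gene AL805899.1 (88909855 to 88938521, minus strand), which is tagged there as a host of a small RNA. The nearest other gene is the interferon gene Ifne, 30356 bases away. RNAfold gave the 106-base hairpin a minimum free energy of -48.7 kcal/mol. In that fold 17 bases of each arm paired with the other arm, of 22 in miR-31-5p and 23 in miR-31-3p. GC content was 54.5% in the 5p arm and 43.5% in the 3p arm.

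The libraries held 1070762 to 1577691 miRNA reads in mitochondria and 3242002 (CR) and 2431564 (AL) in the pools. Levels are given as RPM, reads per 1000000 miRNA reads, in which 1 read was worth 0.308 to 0.934 RPM. The hepatocyte miRNA miR-122 took 25.2% to 58.1% of the reads in mitochondrial libraries and 26.3% and 25.5% in the CR and AL pools, so the liver label fitted its main marker, and RPM of other names depend on that share. No marker list measured the purity of the mitochondria.

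miR-31-5p was the major arm in every library and miR-31-3p the minor one, but their order over the groups differed. miR-31-3p was highest in CR mitochondria, whereas miR-31-5p was highest in whole liver. miR-31-3p stood at 33.3, 38.0 and 25.2 RPM in the 3 CR mitochondrial libraries (40, 60 and 27 reads), against 11.1, 9.13 and 7.03 RPM in the 3 AL mitochondrial libraries (12, 10 and 10 reads). The lowest CR library lay 2.28-fold above the highest AL library, so the groups did not overlap. Of 391 names tested in this comparison, 5.12% had all CR above all AL libraries, and since the arm was picked on this contrast nothing is read from that. The means were 32.2 ± 6.48 RPM in CR mitochondria and 9.08 ± 2.02 RPM in AL mitochondria (SD, n = 3 each), and the difference on the log2(RPM + 1) scale was 1.72 (SE 0.42 from limma). By level, the arm was at place 150, 151 and 158 of 471, 528 and 462 names in the CR libraries. In the AL libraries it was at place 222, 227 and 240 of 493, 485 and 501 names. These places restate the same levels, and nothing more is read from them.

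miR-31-5p, the arm with the better known targets, stood at 122.4, 91.9 and 98.1 RPM in CR mitochondria (147, 145 and 105 reads), against 109, 35.6 and 62.6 RPM in AL mitochondria (118, 39 and 89 reads). The groups overlapped, since AL replicate 1 lay above CR replicates 2 and 3. The means were 104 ± 16.1 RPM in CR mitochondria and 69.0 ± 37.1 RPM in AL mitochondria (SD, n = 3 each). The log2 difference was 0.72 (SE 0.41), and it was 1.11 without AL replicate 1 and 0.32 without AL replicate 2. Exact Poisson intervals of the AL libraries, 90.2 to 130 RPM in replicate 1, 25.3 to 48.7 RPM in replicate 2 and 50.2 to 77.0 RPM in replicate 3, did not overlap, so the 3 AL libraries differed in this arm by more than counting error. For miR-31-3p the corresponding AL intervals, 5.72 to 19.3, 4.38 to 16.8 and 3.37 to 12.9 RPM, overlapped one another. These intervals cover counting error only.

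**Figure D1:**
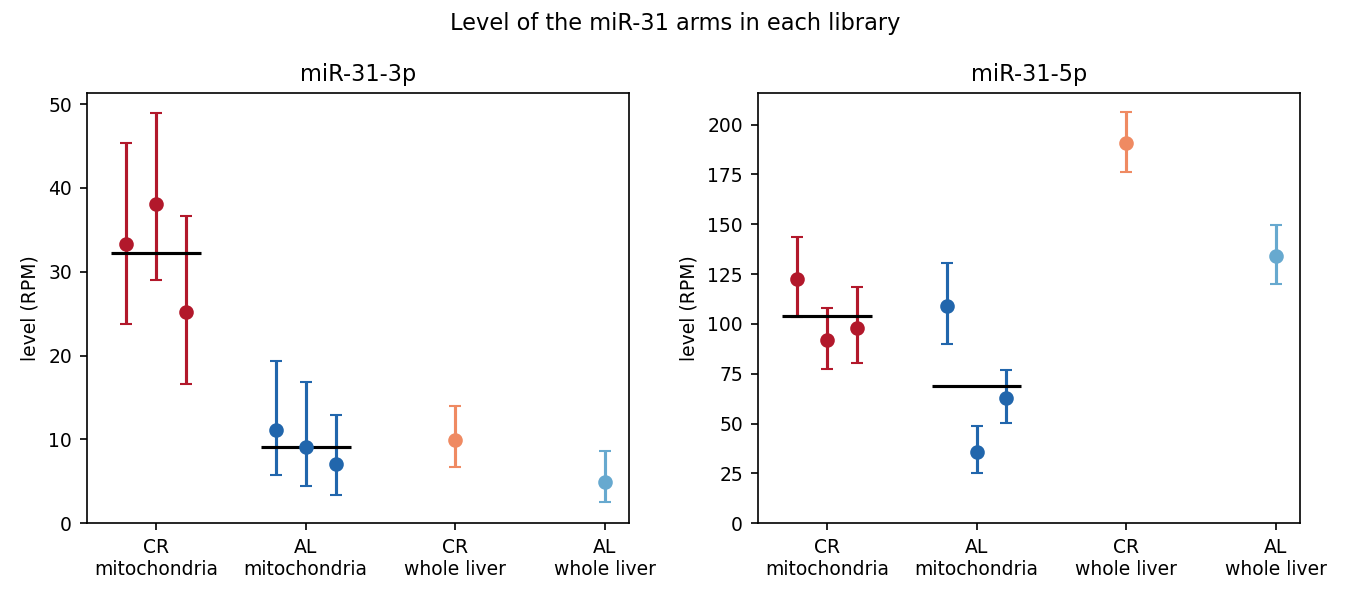
Level of miR-31-3p (left) and miR-31-5p (right) in RPM for each library, in CR and AL mitochondria and in the CR and AL whole-liver pools. Points are libraries, bars are exact 95% Poisson intervals and black lines are means of 3 libraries. miR-31-3p lies between 25.2 and 38.0 RPM in CR mitochondria and at 11.1 RPM or less in the other libraries, while miR-31-5p is highest in the pools, at 191 and 134 RPM.

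The sum of the arms was 156, 130 and 123 RPM in CR mitochondria and at 120, 44.7 and 69.6 RPM in AL mitochondria. The lowest CR and highest AL values, 123 and 120 RPM, were nearly equal. The pools held 201 RPM under CR and 139 RPM under AL.

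The median log2 difference was -0.17 over the 391 names tested on the RPM scale and 0.03 over the 419 names that passed the filter with DESeq2 size factors, so part of any RPM difference depends on the scaling. Relative to the median on the RPM scale miR-31-3p differed by 1.89 and miR-31-5p by 0.89 on the log2 scale. With DESeq2 size factors, TMM factors, upper quartile factors or a total without miR-122, the differences relative to the median of the names tested under each were 1.91 to 1.97 for miR-31-3p and 0.91 to 0.94 for miR-31-5p. CR libraries lay above all AL libraries for miR-31-3p under all 4 scalings. For miR-31-5p this was so under TMM factors only. How many of all names did so under these scalings was not counted. Since the arms were picked on this contrast, nothing is read from these positions.

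In whole liver both arms were higher in the CR pool than in the AL pool. miR-31-5p stood at 191 RPM in the CR pool (619 reads) and 134 RPM in the AL pool (326 reads), a ratio of 1.42 (exact 95% interval 1.24 to 1.63). miR-31-3p stood at 9.87 RPM in the CR pool (32 reads) and 4.94 RPM in the AL pool (12 reads), a ratio of 2.00 (1.003 to 4.26). The intervals of the arms overlapped, and the difference between the ratios was not tested. Of 284 names present in both pools with at least 5 RPM in 1 of them, 13.0% had a ratio at or above that of miR-31-5p and 6.69% at or above that of miR-31-3p, and the median ratio was 0.856. Each diet had a single pool, so the ratios set 2 libraries beside each other with no replicate check. In bulk RNA, fewer cells that make miR-31 and less miR-31 per cell cannot be told apart.

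In the comparison of mitochondria with whole liver miR-31-3p passed the test, while miR-31-5p, with a difference of the other sign, did not. The arms were picked on the diet contrast in mitochondria rather than on this comparison. Its mitochondrial side holds the same 3 CR libraries, where miR-31-3p was high, so the test is not independent of that choice. By limma-trend over 417 names in all 8 libraries, with diet as a term, miR-31-3p was higher in mitochondria, with a log2 difference of 1.17 (SE 0.43, adjusted p = 0.0433). Its values were 33.3, 38.0 and 25.2 RPM in CR and 11.1, 9.13 and 7.03 RPM in AL mitochondria, against 9.87 and 4.94 RPM in the CR and AL pools. All 4 libraries above both pools were the 3 of CR and AL replicate 1, and the remaining AL libraries lay between the pools. The CR mean was 3.26 times the CR pool and the AL mean 1.84 times the AL pool. Of all names tested, 10.6% were called higher in mitochondria.

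That call was close to the threshold and rested on single libraries. It was lost without CR mitochondria replicate 1 (adjusted p = 0.0691) or 2 (0.0541), AL mitochondria replicate 1 (0.0508) or 2 (0.0533), the CR pool (log2 difference 0.74, adjusted p = 0.433) or the AL pool (1.59, adjusted p = 0.0905), and with no filter on low values (0.0568). It held with DESeq2 size factors (adjusted p = 0.0147) and with TMM factors (0.0153), and with edgeR's quasi-likelihood test (log2 difference 1.76, adjusted p = 0.00624), DESeq2 (1.65, adjusted p = 0.00402) and limma-voom (1.87, adjusted p = 0.00218) on recovered reads. Over 20 alternatives the log2 difference was above 0 each time, from 0.74 to 1.87, and 13 passed the threshold.

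miR-31-5p had a log2 difference of -0.98 (SE 0.38, adjusted p = 0.0583), which did not pass. All 6 mitochondrial libraries, at 122.4, 91.9 and 98.1 RPM under CR and 109, 35.6 and 62.6 RPM under AL, lay below both pools, at 191 and 134 RPM. Of the tested names, 27.1% had all mitochondrial libraries below both pools and 21.6% were called lower by limma, so this position was common. Under DESeq2 size factors, TMM factors, upper quartile factors or a total without miR-122 the mitochondrial libraries overlapped with the pools. The mean of CR mitochondria was 0.545 times the CR pool and that of AL mitochondria 0.515 times the AL pool.

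The scaling matters for this comparison, since the median log2 difference was -0.31 over the 417 names tested on the RPM scale, with 44 names higher and 90 lower. With DESeq2 size factors 438 names passed the filter, and their median was 0.01, with 60 higher and 73 lower. Relative to the median of all names the log2 difference of miR-31-3p was 1.47 on the RPM scale and 1.43 to 1.54 under the 4 other scalings. That of miR-31-5p was -0.68, and -0.69 to -0.62 under the others. The sign of each arm was thus the same on all 5 scales.

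**Figure D2:**
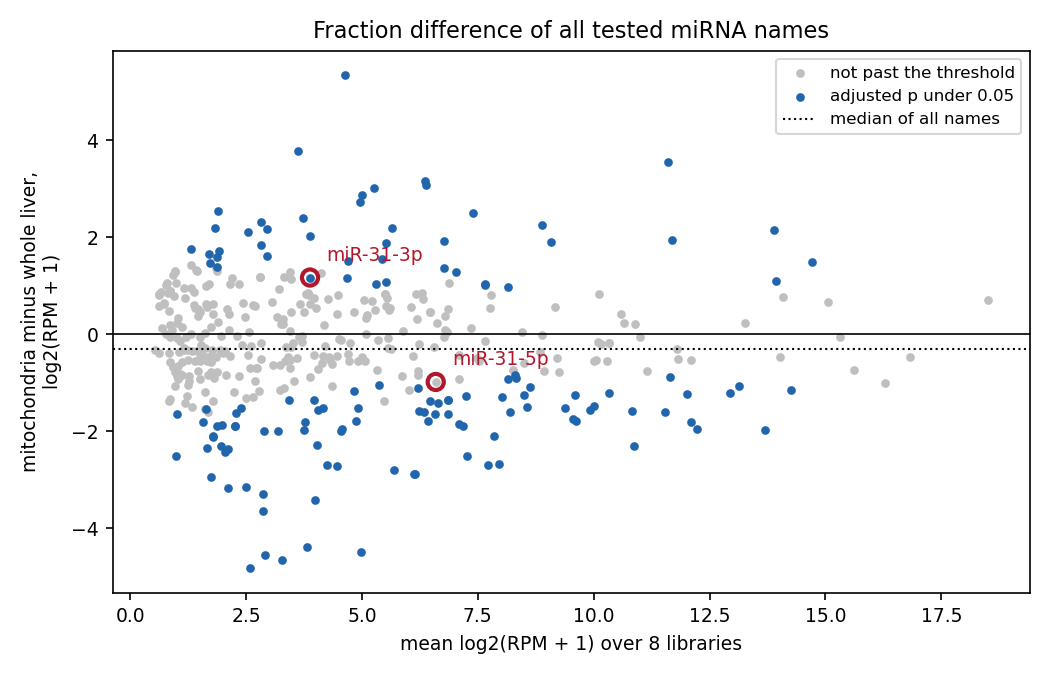
Difference between mitochondria and whole liver on the log2(RPM + 1) scale against the mean level, for the 417 tested names; blue points passed an adjusted p of 0.05 by limma and the dotted line is the median of all names. miR-31-3p lies at 1.17 and passed the threshold, and miR-31-5p lies at -0.98 and did not.

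A ratio of the arms within a library needs no scaling, and it placed all mitochondrial libraries apart from the pools. The 3p arm made up 21.4%, 29.3% and 20.5% of the miR-31 reads in CR mitochondria and 9.23%, 20.4% and 10.1% in AL mitochondria, against 4.92% in the CR pool and 3.55% in the AL pool. In other terms, each read of miR-31-3p stood beside 2.42 to 3.89 reads of miR-31-5p in CR mitochondria, 3.90 to 9.83 in AL mitochondria, 19.3 in the CR pool and 27.2 in the AL pool. The mean share was 18.5% ± 7.59 (SD, n = 6) in mitochondria and 4.23% over the 2 pools, a difference of 14.2 percentage points. The exact two-sided permutation test gave p = 0.0714. The test as run doubles the smaller tail. With 6 libraries against 2 it could give no smaller p, so it could not pass 0.05. The 6 include the CR libraries in whose contrast with AL the arms were picked. The difference was 12.1 to 16.1 points when each library was left out in turn.

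Within CR the exact Clopper-Pearson 95% intervals of the 3 mitochondrial libraries, the lowest of which began at 13.9%, lay above that of the CR pool (3.39% to 6.87%). Within AL the intervals of replicates 1 (4.86% to 15.6%) and 3 (4.95% to 17.8%) overlapped with that of the AL pool (1.85% to 6.12%), and replicate 2 (10.2% to 34.3%, from 49 reads) lay above it. Overlap of such intervals does not show that a difference lies within counting error.

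As a description of the diet groups, the 3p share averaged 23.7% ± 4.84 in CR mitochondria and 13.2% ± 6.22 in AL mitochondria (SD, n = 3 each), a difference of 10.5 percentage points. The lowest CR share (20.5%, 27 of 132 reads) and the highest AL share (20.4%, 10 of 49 reads) were almost the same. In the pools the CR minus AL difference was 1.37 points, with overlapping intervals.

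**Figure D3:**
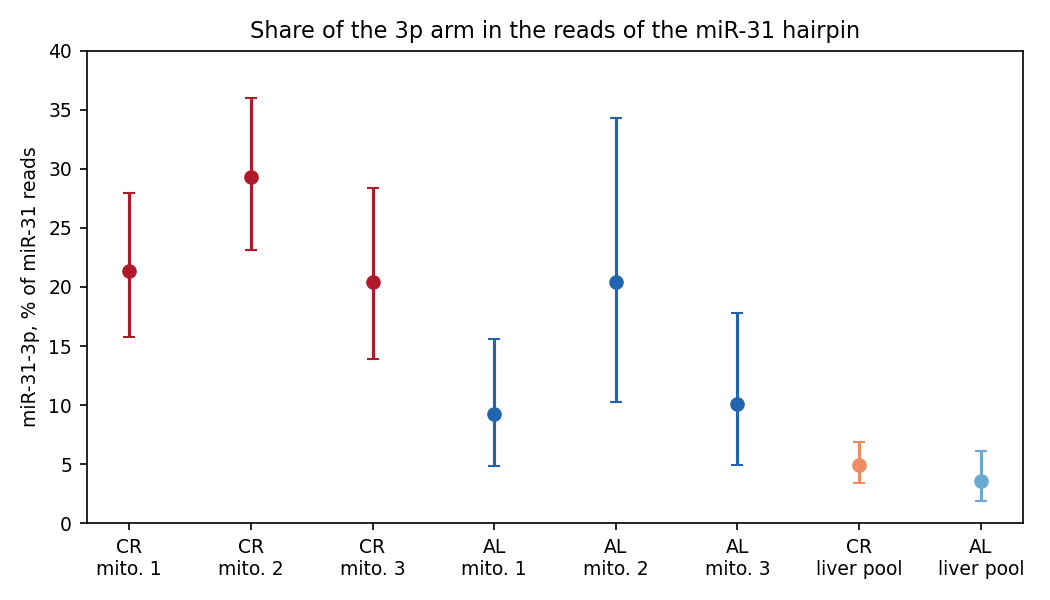
Share of miR-31-3p in the reads of both miR-31 arms, in percent, for each library; bars are exact 95% Clopper-Pearson intervals. The shares are 20.5% to 29.3% in CR mitochondria, 9.23% to 20.4% in AL mitochondria, and 4.92% and 3.55% in the CR and AL pools.

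Arm ratios of other hairpins give the background for this difference. In 80 hairpins both arms had at least 1 read in all 8 libraries, with arms paired by name. The log2 ratio of 3p to 5p reads was higher in mitochondria than in the pools by 2.26 for miR-31, a 4.81-fold difference that was the 9th highest of the 80. The median hairpin had -0.03 and the values ran from -4.71 to 6.97. In 27.5% of the hairpins all mitochondrial libraries had a higher 3p to 5p ratio than both pools, and in 22.5% all had a lower one, so a shifted arm ratio between the fractions was common among hairpins. Taking for each hairpin the arm that was the minor one in the pools, 58.8% had relatively more of it in mitochondria (median log2 difference 0.46), and miR-31 stood 14th. The minor arm was set from the same 2 pools, so error in the pool ratios raises this difference, and nothing is read from it. For the CR minus AL difference of the arm ratio in mitochondria, miR-31 had 1.10, the 5th highest, beside a median of -0.04. Since the arms were picked on this diet contrast, nothing is read from that place.

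**Figure D4:**
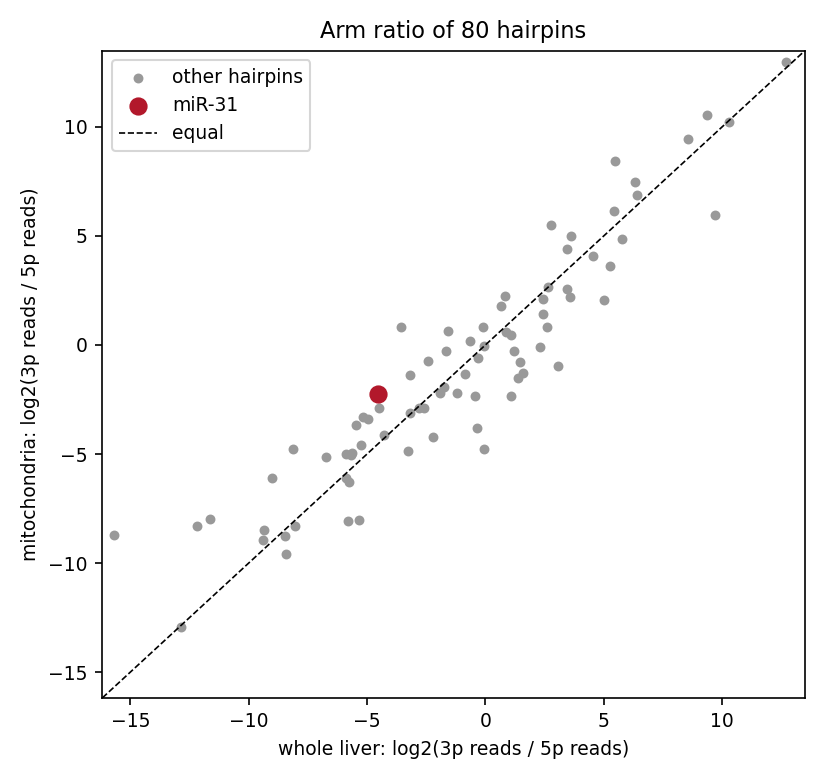
Log2 ratio of 3p to 5p reads in mitochondria (vertical, mean of the CR and AL groups) and in whole liver (horizontal, mean of the CR and AL pools) for 80 hairpins; the dashed line marks equal ratios. miR-31, in red, lies 2.26 above the line, and other hairpins lie on both sides of it, from -4.71 to 6.97.

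Likeness of the patterns over libraries was measured by Pearson's r of log2(RPM + 1) against the 233 names with a mean of at least 10 RPM. Between miR-31-3p and miR-31-5p r was 0.11 (Spearman's rho -0.02) over all 8 and 0.64 within the 6 mitochondrial libraries. The libraries fall into 2 fractions and share their scaling, so these values describe the libraries and carry no test.

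The names most like miR-31-3p were miR-30b-5p, a member of the miR-30 family (r = 0.91, rho = 0.86), miR-6240 (0.86, 0.74), miR-187-3p (0.81, 0.81), miR-802-5p, known from obese liver (0.80, 0.76), and miR-3470a (0.80, 0.60). Within the 6 mitochondrial libraries r was 0.88, 0.90, 0.71, 0.96 and 0.71 for the same names in that order. Without the 2 libraries farthest from the median of miR-31-3p it was 0.82, 0.80, 0.64, 0.71 and 0.71. miR-30b-5p averaged 2113 RPM in CR and 1305 RPM in AL mitochondria and stood at 1321 and 1158 RPM in the CR and AL pools. miR-6240 averaged 34.9 RPM in CR and 10.7 RPM in AL mitochondria, close to the means of miR-31-3p, and stood at 2.78 and 2.88 RPM in the CR and AL pools.

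The names most like miR-31-5p were different ones. They were miR-365-3p (r = 0.88, rho = 0.90), miR-92a-3p of the miR-17-92 cluster (0.88, 0.88), miR-340-5p (0.88, 0.83), miR-676-3p (0.86, 0.95) and miR-26a-5p (0.83, 0.76). Within mitochondria r was 0.95, 0.83, 0.80, 0.77 and 0.68 in that order. Without the 2 libraries farthest from the median of miR-31-5p it was 0.78, 0.72, 0.68, 0.85 and 0.50. All 5 stood higher in both pools than on average in mitochondria. miR-365-3p averaged 57.9 RPM in CR and 35.4 RPM in AL mitochondria, against 296 and 323 RPM in the CR and AL pools, and miR-340-5p averaged 969 and 715 RPM in CR and AL mitochondria, against 2921 and 1679 RPM.

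Since miR-31 is known from epithelia, the levels of epithelial and other cell type markers were set beside it. In mitochondria with the diet, limma called 0.512% of the 391 names (1 higher and 1 lower), and none of the 8 tested names of bile duct and other epithelium, with a median log2 difference of 0.24 beside -0.17 over all names. Their summed level was 749 to 1499 RPM in CR and 1007 to 1678 RPM in AL mitochondria, overlapping between the diets. miR-203-3p, an epithelial miRNA of skin and ducts, averaged 655 RPM in CR and 895 RPM in AL mitochondria, and miR-200a-3p, which keeps cells epithelial, 298 and 261 RPM. miR-200b-3p averaged 38.4 and 26.9 RPM. Every epithelial stem on the list was detected in at least 1 library.

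The miR-183 cluster, expressed in sensory and other epithelia, had a summed level of 257 to 461 RPM in CR and 102 to 255 RPM in AL mitochondria. The lowest CR and highest AL sums were nearly equal. Of the 391 single names tested, 5.12% had all CR above all AL libraries. In the CR and AL pools the cluster summed to 444 and 316 RPM. None of its 3 tested names passed (median log2 difference 0.86). miR-96-5p averaged 21.2 ± 2.63 RPM in CR and 6.64 ± 3.58 RPM in AL mitochondria, miR-183-5p 87.2 and 49.9 RPM, and miR-182-5p 229 and 132 RPM. Its part in the miR-31 difference was not tested.

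CR mitochondria replicate 2, which had the highest miR-31-3p level, also held the pancreatic miR-375-3p at 63.4 RPM and miR-217-5p at 33.0 RPM, against at most 3.74 and 2.06 RPM in the other libraries. The remaining pancreas names, of miR-216a and miR-216b, had means under 1 RPM in every group. Without that library the log2 difference of miR-31-3p between CR and AL mitochondria was 1.59, and that of miR-31-5p was 0.80. The CR minus AL difference of the 3p share was then 7.68 percentage points, against 10.5 with all libraries. The limma call of miR-31-3p between the fractions was lost (adjusted p = 0.0541). Whether pancreatic RNA had a part in the miR-31 levels of that library was not tested.

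Of the other lists, the 9 stellate and fibroblast names included 1 that fell with CR in mitochondria, miR-199a-3p. Hepatocyte (10 names), leukocyte (6), erythroid (4), muscle (3) and pancreas (1) names held no call. Leukocyte names summed to 199 to 264 RPM in CR and 273 to 422 RPM in AL mitochondria. Of the 391 single names tested, 14.3% had all CR below all AL libraries. The leukocyte names did not move together. miR-142a-5p averaged 84.7 RPM in CR and 171 RPM in AL mitochondria, while miR-150-5p went the other way, at 39.6 and 16.2 RPM. The hepatocyte sum was 541908 to 720536 RPM in CR and 578472 to 627356 RPM in AL mitochondria. Erythroid sums (56.0 to 98.3 RPM in CR, 55.5 to 94.98 RPM in AL) and muscle sums (17.5 to 129 RPM in CR, 18.5 to 161 RPM in AL) overlapped between the diets.

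Between the fractions the epithelial calls were downward. The upward limma call of miR-31-3p there was close to the threshold and rested on single libraries. miR-31-5p had a log2 difference of -0.98, of the same sign as the epithelial calls, and did not pass (limma adjusted p = 0.0583). Of 9 tested epithelial names 3 were lower in mitochondria and 0 higher, with a median log2 difference of -0.91 beside -0.31 over all names. Over all 417 tested names 21.6% were called lower and 10.6% higher, the shares beside which this and the following counts stand. Of the 4 epithelial names with the highest mean RPM over the 8 libraries 3 were called lower, miR-203-3p (log2 difference -1.56, adjusted p = 0.0019), miR-200a-3p (-0.91, 0.0442) and miR-200b-3p (-2.79, 3.5e-05). The other of the 4, miR-203-5p, had a log2 difference of 0.07 (adjusted p = 0.905). miR-96-5p was also lower (-1.35, adjusted p = 0.0301), as 1 of 3 tested miR-183 cluster names. Of the remaining lists, 1 hepatocyte name was higher and 2 lower of 10, and 1 stellate name was higher and 3 lower of 9. None of 6 leukocyte, 5 erythroid, 3 muscle and 2 pancreas names was called.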

How the data were processed

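Small RNA of 8 liver libraries was analysed from 1 deposited table per library. Per the file headers the values are named tpm, but the deposited RPM columns each sum to 1000000 with no scaling for length, over the names listed in that library, and names at 0 were left out by the authors. Reads were mapped with Bowtie to build mm9, per the submitters' processing notes; how reads were assigned to names is not given in the sources used here. Divided by the smallest value of its library, every value (100%) came out whole within 0.01, which gave the reads. The run of edgeR's quasi-likelihood test on those reads called 167 names between the fractions and 7 with the diet. Depths are in the results.

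The members, marker lists and tests were chosen with earlier results of these data known. The log2(RPM + 1) values were fitted with limma-trend (version 3.58.1 under R 4.3.3) for names with at least 1 RPM in at least 3 of the libraries compared, and p-values were adjusted by Benjamini-Hochberg and called under 0.05. This stands in place of the count test planned for counts. A fold on this scale understates the change of low names. In the fraction comparison each pool is taken to vary as mitochondrial libraries do. Alternatives used edgeR 4.0.16 and DESeq2 1.42.0 on recovered reads. The limma fits were also run on simulated data in which pools and mitochondrial libraries varied alike, and no result here rests on that run. Intervals are exact Poisson (levels) or Clopper-Pearson (shares, pool ratios); shares were compared with an exact permutation test (Python 3.11.15, scipy 1.17.1). The hairpin was folded with RNAfold 2.7.2. Coordinates are from GRCm38, not the mm9 of the alignment. Named miRNAs were both arms, the 5 most like each arm, and up to 4 abundant members of each list; miR-199a-3p in the diet comparison is its list's only call.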

Additional observations from a re-analysis of the deposited data

How the results depend on the processing

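The direction of every miR-31 value held under all alternatives run. For the CR minus AL log2 difference in mitochondria, miR-31-3p (1.72) was at 1.40 with a pseudocount of 5 RPM, 2.04 with TMM factors, 2.02 with edgeR and 2.08 with DESeq2, and 1.57 to 1.88 with each library left out; miR-31-5p (0.72) was at 0.32 to 1.11. The mitochondria minus whole liver difference of miR-31-3p was also 1.17 with no filter, where its call was lost, and ran from 0.74 to 1.59 with each library left out. miR-31-5p passed at -0.98 both with a filter of at least 10 RPM in 3 libraries (adjusted p = 0.0490) and with robust moderation in limma (0.0442), and at -1.16 without AL mitochondria replicate 1 (0.0154), within -1.16 to -0.79 over the libraries left out. In the pools, the miR-31-5p ratio was 1.76 with TMM and 1.74 with upper quartile factors, and that of miR-31-3p ran from 1.83 to 2.48.

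The 134 names called between the fractions became 58 without the CR pool and 65 without the AL pool, and 58 to 140 over all libraries left out. The 2 names called with the diet became 5 with DESeq2 size factors or TMM factors, 1 without miR-122, 10 with no filter, 8 with the filter of 10 RPM, 7 with edgeR, 11 with DESeq2 and 0 to 6 with a library left out. At 0 calls, without CR mitochondria replicate 1, CR mitochondria replicate 2 or AL mitochondria replicate 2, limma gave 50, 55 and 43 names an unadjusted p below 0.05; edgeR and DESeq2 were not run on these subsets. With the replicate number as a block 3 names were called, and the arms' differences (1.72 and 0.72) cannot change. The numbers were not taken to pair the samples: deviations of same-numbered CR and AL libraries correlated at 0.36, 0.08 and 0.11, and not every library correlated best with its own number. The cause of these changes was not tested. Depth limits the precision of miR-31-3p, which rests on 10 to 60 reads per mitochondrial library.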
